A study of Mus musculus with 9 samples.

Results

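The genes described here are 3 ligands of the immune receptor NKG2D (Ulbp1, Raet1d and Raet1e), the classical MHC class I heavy chains H2-K1 and H2-D1, and the peptide transporter Tap1. They were taken by symbol from the platform annotation, and Ulbp1 was chosen by its measured difference between Rb KO and WT retinas, which was among the largest. Of the 6 genes, 4 (Ulbp1, H2-K1, H2-D1 and Tap1) had a probe set of their own among the 24259 genes tested. The other two, Raet1d and Raet1e, lay together on 1 probe set that the annotation also assigns to H60b, so neither has a value of its own.

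Whole retinas of mice at postnatal day 8 (P8) were profiled on Affymetrix arrays in 3 groups of 3 arrays: Rb/p107 DKO, in which both Rb and p107 were knocked out, Rb KO, in which Rb alone was knocked out, and wild type (WT). All groups had the mixed strain background C57Bl/6x129SvJ, and the arrays of a group are biological replicates by the series' own account. How, and in which retinal cells, the alleles were deleted was not given in the sources used here, so a mutant retina may hold cells that keep them. Values are deposited log2 intensities, and a reading counts as above background when it exceeds a threshold, the 95th percentile over the 5222 negative controls on its own array, which lay between 7.94 and 8.5. Single arrays are named by group and replicate number, as in WT replicate 1.

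NKG2D is an activating receptor on natural killer cells and on some T cells. In the mouse its ligands are cell surface proteins distantly related to MHC class I: Ulbp1, also known as MULT1, and the RAE-1 and H60 proteins; most healthy cells carry little of them, and DNA damage signalling and proliferation are known to raise them. Classical class I molecules have the opposite role for natural killer cells, which they can inhibit, and they show peptides from inside the cell to cytotoxic T cells. Those peptides are cut by the proteasome, pumped into the endoplasmic reticulum by Tap1 and Tap2 and fitted into the heavy chain by tapasin and its partners, and healthy neurons are known for low class I levels.

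The promoters of these genes are shown so that the binding words of the ligand that differed most can be read beside those of the class I genes. Sequences are RefSeq windows on build GRCm38.p6 from 250 bases before to 50 after the start of the gene, 5′ to 3′ on the strand of the gene. Capitals mark the E2F words (the word TTCCCGC, the word TTGGCGC, the word TTCGCGC and also the word TTGCCGC), the NF-kB word GGGATTCCC, the interferon response word GAANNGAAA, and the words CCAAT and TGACG, each searched on both strands, and none of the marked words overlapped. In the Raet1d window, capitals mark in their place the 3 bases at which it differs from the matching window of Raet1e. The windows lie at chr10:7473428-7473727 (Ulbp1, minus strand), chr17:35262844-35263143 (H2-D1, plus strand), chr17:34000298-34000597 (H2-K1, minus strand), chr17:34187306-34187605 (Tap1, plus strand) and chr10:22361644-22361943 (Raet1d, plus strand).
Ulbp1: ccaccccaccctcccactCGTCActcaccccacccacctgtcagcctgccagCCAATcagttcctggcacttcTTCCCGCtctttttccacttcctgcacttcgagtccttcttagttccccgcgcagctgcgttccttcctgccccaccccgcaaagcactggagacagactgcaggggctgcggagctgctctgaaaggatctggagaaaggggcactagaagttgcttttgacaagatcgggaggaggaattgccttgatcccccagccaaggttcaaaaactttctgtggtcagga
H2-D1: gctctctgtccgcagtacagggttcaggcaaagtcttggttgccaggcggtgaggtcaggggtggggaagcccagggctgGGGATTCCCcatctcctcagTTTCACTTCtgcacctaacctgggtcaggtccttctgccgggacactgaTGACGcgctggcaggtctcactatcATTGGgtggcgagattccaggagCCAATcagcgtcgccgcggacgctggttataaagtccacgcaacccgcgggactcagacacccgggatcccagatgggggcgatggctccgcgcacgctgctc
H2-K1: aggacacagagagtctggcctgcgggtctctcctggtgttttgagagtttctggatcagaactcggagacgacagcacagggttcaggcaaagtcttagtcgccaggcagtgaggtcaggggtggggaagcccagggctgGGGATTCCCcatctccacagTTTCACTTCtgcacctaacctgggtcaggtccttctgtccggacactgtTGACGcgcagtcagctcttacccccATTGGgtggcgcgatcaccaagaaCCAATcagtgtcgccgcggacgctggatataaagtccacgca
Tap1: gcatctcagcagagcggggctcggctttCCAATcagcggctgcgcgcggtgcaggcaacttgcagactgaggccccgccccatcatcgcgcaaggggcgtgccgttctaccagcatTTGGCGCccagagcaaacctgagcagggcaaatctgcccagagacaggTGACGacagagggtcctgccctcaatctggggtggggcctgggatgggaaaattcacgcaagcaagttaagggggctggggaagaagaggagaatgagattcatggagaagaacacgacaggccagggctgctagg
Raet1d: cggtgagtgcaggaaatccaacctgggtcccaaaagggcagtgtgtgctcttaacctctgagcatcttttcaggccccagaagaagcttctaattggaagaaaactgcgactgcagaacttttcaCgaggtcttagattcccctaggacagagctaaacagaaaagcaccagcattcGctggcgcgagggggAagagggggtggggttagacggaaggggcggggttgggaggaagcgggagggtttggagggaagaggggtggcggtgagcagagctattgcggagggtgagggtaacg

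The Ulbp1 window held the E2F word TTCCCGC, which 4.6% of the 32851 promoter windows in the table held, and any of the 4 E2F words was found in 9.57% of them. It also held CCAAT (in 37.4% of windows) and, on the minus strand, TGACG (in 20.8%), and neither the NF-kB nor the interferon response word. H2-D1 and H2-K1 both held the NF-kB word, which 116 windows of the table held (0.353%), the interferon response word (7.52%), 2 copies of CCAAT and 1 TGACG, and no E2F word. Their windows were identical at 214 of 239 aligned bases (89.5%). Tap1 held the E2F word TTGGCGC (2.45% of windows), CCAAT and TGACG, and 275 bases of its window are shared with that of Psmb9, an immunoproteasome subunit gene transcribed the other way. The Raet1d window held CCAAT on the minus strand and none of the other words, and matched the Raet1e window at chr10:22173247-22173546 at 295 of 298 bases. That window was picked from 2 that the table lists for Raet1e, and the other held none of the words. H2-K1 also has 2 windows, which held the same words, and the first is shown. A match to such a word is a description of the sequence and not a measured binding site.

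Across the whole series, 5923 genes were called in Rb KO against WT, 7113 in Rb/p107 DKO against WT and 617 in Rb/p107 DKO against Rb KO, at an adjusted p under 0.05 in limma, which moderates each gene's spread over arrays by that of all genes. Of 12 measured markers of retinal neurons and glia, 11 were above background on at least 1 array, and 10 of the 12 fell in each mutant against WT. Over all genes, 17.1% fell in Rb/p107 DKO and 14.3% in Rb KO. The Rb1 probe set averaged 9.86 ± 0.13 in Rb/p107 DKO, 9.91 ± 0.09 in Rb KO and 10.22 ± 0.23 in WT retinas (SD, n = 3 each), with adjusted p of 0.0423 for Rb/p107 DKO and 0.0793 for Rb KO against WT. Rbl2, the gene of the remaining family member p130, averaged 8.95 ± 0.05 in Rb/p107 DKO, 8.99 ± 0.06 in Rb KO and 9.17 ± 0.10 in WT, and was not called. Where the Rb deletion lies relative to its probes was not given, and Rbl1, the gene of p107, was not analysed here. Arrays correlated at 0.992 to 0.998 within groups and at 0.972 to 0.985 between mutants and WT.

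Ulbp1 read at background in WT retinas and well above it in both mutants. Its log2 intensity was 9.6, 9.59 and 9.4 in the Rb/p107 DKO retinas, 9.51, 9.83 and 9.4 in the Rb KO retinas, and 5.56, 5.98 and 5.37 in the WT retinas. Every mutant array lay above every WT array, by more than 3 log2 units, and the mutants overlapped each other. The group means were 9.53 ± 0.11 in Rb/p107 DKO, 9.58 ± 0.22 in Rb KO and 5.64 ± 0.31 in WT (SD, n = 3 each). Because no WT array was above background, the difference in level has only a bound: at least 2.6-fold in Rb/p107 DKO and at least 2.7-fold in Rb KO against WT, computed with the background threshold in place of the lower WT readings. The readings themselves differed by 3.89 log2 units in Rb/p107 DKO and 3.94 in Rb KO against WT. No test is given for Ulbp1, since its difference in Rb KO chose it and the Rb/p107 DKO comparison shares the WT arrays.

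The values next to it show only how Ulbp1 came to be chosen. The order was taken among 1974 genes with an adjusted p under 0.05 and every Rb KO array above every WT array. Predicted genes, small RNA genes and olfactory receptor genes were left out. In order of the difference between Rb KO and WT readings, E2f8, a transcriptional repressor of the E2F family, stood just before Ulbp1 at 3.97 log2 units. Atad2, a chromatin ATPase, stood just after it at 3.74. The kinesins Kif15 and Kif23, both at 3.63, lay just inside and just outside the 10 largest. That order is one of readings, since WT was at background for Ulbp1.

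Rb/p107 DKO and Rb KO retinas differed little in Ulbp1. The Rb/p107 DKO mean was -0.05 log2 units from the Rb KO mean (SE 0.154), within the spread of either group. Likeness to Ulbp1 over the 9 arrays was taken among 6009 genes above background in all arrays of a group. Predicted genes, small RNA genes and olfactory receptor genes were left out of that pool. The 5 genes most like Ulbp1 were the condensin II subunit gene Ncapg2 (Pearson r 0.998), the replicative helicase subunit gene Mcm4, the proliferation marker gene Mki67, the histone gene H2ac10 and the kinase gene Pdik1l (r 0.997 each). These values describe 9 arrays that fall into mutant and WT clusters, so that any gene with an even difference between them scores high, whatever its size. Mki67, for scale, averaged 12.42 in Rb/p107 DKO, 12.28 in Rb KO and 7.24 in WT retinas, and Pdik1l 8.59, 8.59 and 8.14.

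**Figure D1:**
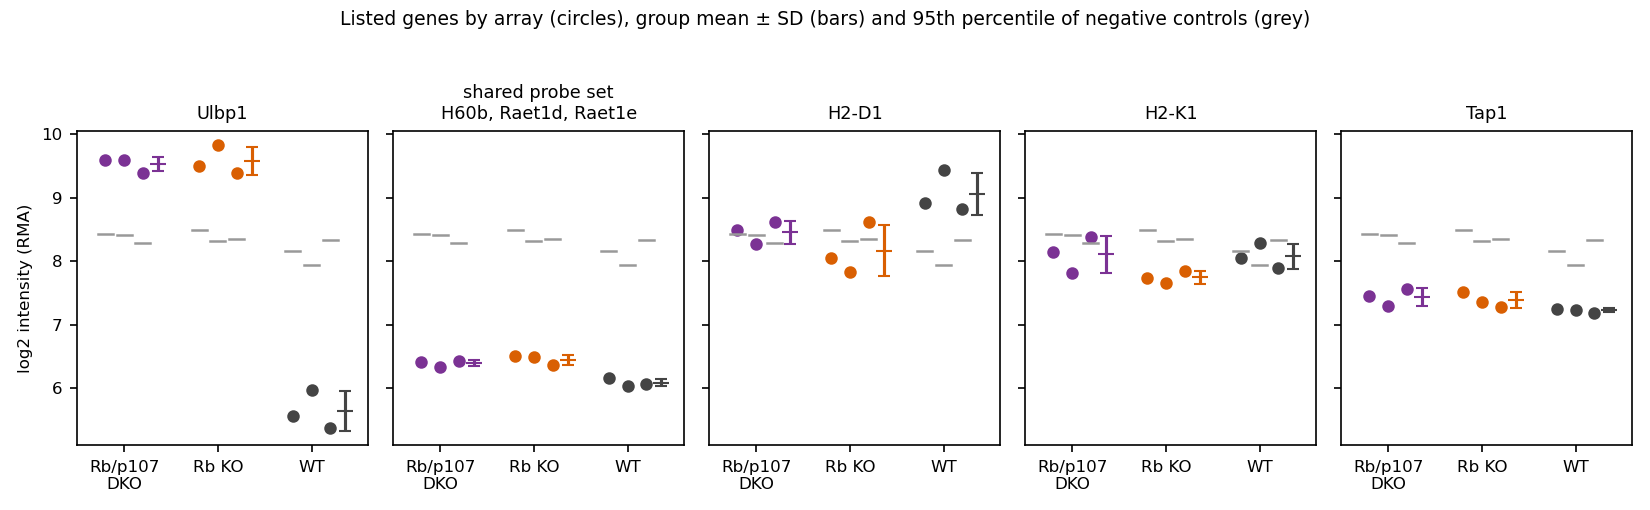
Log2 intensity (RMA) of the listed genes in each of the 9 retinas, Rb/p107 DKO, Rb KO and WT from left to right in each panel, with a circle per array, group mean ± SD bars beside them (n = 3) and a grey line at each array's 95th percentile of negative controls. Ulbp1 sits between 9.4 and 9.83 in the mutants and between 5.37 and 5.98 in WT, H2-D1 is highest in WT, and the shared RAE-1 probe set and Tap1 stay below the grey lines throughout.

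Raet1d and Raet1e encode RAE-1 proteins, the other main NKG2D ligand family of the mouse. Their shared probe set read 6.41, 6.34 and 6.43 in Rb/p107 DKO retinas, 6.51, 6.49 and 6.36 in Rb KO retinas, and 6.16, 6.04 and 6.07 in WT retinas. No array was above background, yet every mutant reading exceeded every WT reading. In a limma fit to all 52917 transcript clusters, added after the sharing was seen, the probe set rose by 0.36 log2 units in Rb KO (SE 0.08, adjusted p = 0.0139) and by 0.30 in Rb/p107 DKO against WT (SE 0.08, adjusted p = 0.0229). The share of clusters called higher was 6.63% in the first comparison and 9.49% in the second. The difference between Rb/p107 DKO and Rb KO was -0.06 (adjusted p = 0.942), where 0.603% of clusters were called higher. The Rb KO call was lost without Rb KO replicate 2 (adjusted p = 0.06), and the Rb/p107 DKO call without Rb/p107 DKO replicate 1 (0.0865) or 3 (0.0841). With the separation of control probe sets as a covariate neither was called (adjusted p = 0.106 in Rb/p107 DKO and 0.052 in Rb KO), nor was Rb KO in a fit to its own and the WT arrays alone (0.0524). Since both sides lie below the threshold, no fold is given, and which of the genes on the probe set moved cannot be told from it.

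H60c, a further NKG2D ligand gene and the only one besides Ulbp1 with a probe set of its own, was not above background on any array. It read 4.47, 4.33 and 4.47 in Rb/p107 DKO, 4.61, 4.48 and 4.34 in Rb KO, and 4.42, 4.11 and 4.36 in WT retinas, and the 3 groups overlapped. Its adjusted p was 0.236 in Rb KO and 0.388 in Rb/p107 DKO against WT. Of 9 ligand genes listed, 2 were measured singly and 3 on the shared probe set. Ulbp1 was the single ligand above background on any array.

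Genes tied to the control of NKG2D ligands included the DNA damage kinases. Of 5 measured, 3 rose in Rb KO (10.2% of all genes rose) and 4 in Rb/p107 DKO against WT (12.2%). Chek1, the kinase that restrains the cycle when replication stalls, read 9.29, 9.12 and 9.18 in Rb/p107 DKO, 8.49, 9.12 and 8.67 in Rb KO, and 5.59, 5.64 and 5.40 in WT retinas. No WT array reached background, so that its level was at least 2.07-fold higher in Rb/p107 DKO (adjusted p = 4.7e-08) and at least 1.52-fold higher in Rb KO (adjusted p = 1.4e-07). Atm, the kinase that responds to double-strand breaks, was at least 1.54-fold higher in Rb/p107 DKO (adjusted p = 4.3e-05) and at least 1.38-fold higher in Rb KO (adjusted p = 1.9e-04). Chek2, a target of Atm, stayed below background in all groups, with readings 2.25 log2 units higher in Rb/p107 DKO (adjusted p = 1.0e-06) and 1.51 in Rb KO (adjusted p = 2.9e-05). The list was chosen with results of these data known, and it is no independent support for the pattern of Ulbp1.

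Chek2 was also the only one of these 5 genes called between the mutants, where 1.34% of all genes were called higher. It was 0.74 log2 units higher in Rb/p107 DKO than in Rb KO (adjusted p = 0.02). That call was lost without Rb KO replicate 1 (0.0916) or 3 (0.0853), or Rb/p107 DKO replicate 1 (0.0755) or 3 (0.0589). Marchf9, a ubiquitin ligase gene known to act on the mouse Ulbp1 protein, did not pass in either mutant (adjusted p = 0.432 in Rb KO and 0.106 in Rb/p107 DKO). Atr, the kinase upstream of Chek1, rose in Rb/p107 DKO by 0.37 log2 units (adjusted p = 0.0068) and did not pass in Rb KO (0.21, adjusted p = 0.091).

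On the receptor side no gene was above background on any array. Klrk1, which encodes NKG2D itself, read between 3.44 and 3.59 in Rb/p107 DKO, between 3.52 and 3.59 in Rb KO, and between 3.55 and 3.68 in WT retinas. Its adaptor gene Hcst differed by 0.04 log2 units in Rb/p107 DKO (adjusted p = 0.862) and by 0.10 in Rb KO against WT (adjusted p = 0.625). Tyrobp, an adaptor shared with microglial receptors, rose by 0.68 in Rb/p107 DKO (adjusted p = 0.0152) and by 0.55 in Rb KO (adjusted p = 0.0442). Its Rb/p107 DKO call was lost on leaving out WT replicate 1 (0.055) or Rb/p107 DKO replicate 3 (0.0602). Its Rb KO call was lost on leaving out replicate 1 (0.133) or 3 (0.0965) of WT, replicate 1 (0.162) or 2 (0.115) of Rb KO, or replicate 1 of Rb/p107 DKO (0.0583).

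Markers of the cells that carry NKG2D were at background. Of 19 measured natural killer and T cell genes, 18 were above background on no array, and the exception was Eomes, which retinal ganglion cells also express. The summed linear intensity of the list was 981 to 1090 in Rb/p107 DKO, 980 to 1020 in Rb KO and 1040 to 1090 in WT retinas. Eomes made up 20.0% to 32.9% of that sum. Without Eomes it was 728 to 762 in Rb/p107 DKO, 746 to 813 in Rb KO and 766 to 838 in WT retinas, all from readings below background. Cd4 rose in Rb KO by 0.35 log2 units (adjusted p = 0.0183, and 0.0682 without Rb KO replicate 1). Gzma, a cytotoxic granule protease gene, fell by 0.27 in Rb/p107 DKO (adjusted p = 0.0197) and by 0.26 in Rb KO (adjusted p = 0.029), calls that were each lost without 3 of the arrays in turn (WT replicate 1 and replicates 1 and 2 of the mutant, adjusted p from 0.0719 to 0.104). With renewed quantile normalization Gzma differed by -0.15 in Rb/p107 DKO (adjusted p = 0.196) and by -0.14 in Rb KO (adjusted p = 0.238), and with the control covariate by -0.18 in both (adjusted p = 0.192 and 0.168), none of them called. Cd8a fell by 0.73 in Rb/p107 DKO against WT (adjusted p = 3.6e-04) and by 0.51 against Rb KO (adjusted p = 0.0272; 0.071 to 0.106 without Rb KO replicate 1 or 3 or Rb/p107 DKO replicate 1 or 3). All of these readings lay below background.

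The class I heavy chain gene H2-D1 was lower in the mutants. It read 8.49, 8.28 and 8.62 in Rb/p107 DKO retinas, 8.05, 7.84 and 8.62 in Rb KO retinas, and 8.92, 9.44 and 8.82 in WT retinas. No mutant array reached the lowest WT array, and the mutants overlapped each other. The reading was above background on 2 of 3 Rb/p107 DKO arrays, 1 of 3 Rb KO arrays and 3 of 3 WT arrays. In Rb KO the H2-D1 readings fell by 0.89 on the log2 scale (SE 0.204, adjusted p = 0.00927), and the call held whichever array was left out (adjusted p 0.00152 to 0.0453). H2-D1 was the 1 listed gene called lower among the 3 tested there, where 14.3% of all genes were called lower. None of the 3 was called higher.

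In Rb/p107 DKO H2-D1 fell as well, by a call that rested on single arrays. Its log2 difference from WT was -0.60 (SE 0.204, adjusted p = 0.0491). The call was lost on leaving out replicate 1 (adjusted p = 0.0672) or 2 (0.138) of WT, replicate 1 of Rb KO (0.071), or replicate 1 (0.101), 2 (0.148) or 3 (0.0623) of Rb/p107 DKO, and the difference then ran from -0.68 to -0.41. It was again the 1 listed gene called lower, beside 17.1% of all genes. Between Rb/p107 DKO and Rb KO the difference was 0.29 (adjusted p = 0.648), and none of H2-D1, H2-K1 and Tap1 was called in either direction, where 1.34% of genes were called higher and 1.21% lower.

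The separation of control probe sets also differed between arrays. The area under the curve between positive and negative control probe sets was 0.927 to 0.936 in Rb/p107 DKO, 0.929 to 0.935 in Rb KO and 0.932 to 0.954 in WT arrays, and WT replicate 2 had both the highest area and the highest H2-D1 reading. Within WT and within Rb/p107 DKO, the H2-D1 readings followed the order of the areas. Within Rb KO they did not: replicate 2, with the highest area of its group (0.935), had the lowest H2-D1 reading. Across groups, WT replicate 3 (0.932) read 8.82 and Rb/p107 DKO replicate 3 (0.936) read 8.62. With that area as a covariate, the differences were -0.58 in Rb KO (adjusted p = 0.094) and -0.23 in Rb/p107 DKO (adjusted p = 0.507), and neither was called. The annotation of the probe set also lists H2-L, a close relative of H2-D1, and the probe set alone cannot tell them apart. Whether these mice carry H2-L was not examined. In whole tissue, fewer cells of a type and less RNA per cell cannot be told apart.

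H2-K1, the second classical heavy chain gene on the list, did not pass in any comparison. It read 8.15, 7.81 and 8.38 in Rb/p107 DKO, 7.73, 7.66 and 7.85 in Rb KO, and 8.05, 8.29 and 7.89 in WT retinas. Rb KO arrays were all below WT arrays, while Rb/p107 DKO arrays spanned both. Its level was near the background threshold, which it exceeded on 1 of 3 Rb/p107 DKO arrays, 0 of 3 Rb KO arrays and 1 of 3 WT arrays. The log2 difference was -0.33 in Rb KO (SE 0.142, adjusted p = 0.122) and 0.03 in Rb/p107 DKO against WT (SE 0.142, adjusted p = 0.883), and 0.36 between Rb/p107 DKO and Rb KO (adjusted p = 0.276). Whether H2-K1 and H2-D1 differ in their response was not tested.

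The genes most like H2-D1 over the 9 arrays were Tcf25 (Pearson r 0.976), the helix-loop-helix inhibitor gene Id4 (0.974) and Crcp (0.965), each of which averaged highest in WT. Those most like H2-K1 were the cysteine dioxygenase gene Cdo1 (0.942), the retromer subunit gene Vps26b (0.921) and Cdc42ep4 (0.920). For Tap1 they were the ribosomal protein pseudogenes Rps6-ps1 (0.950) and Rps19-ps4 (0.920) and Lzts2 (0.928). These were taken from genes above background in all arrays of a group, with the same kinds of gene left out as for Ulbp1. H2-D1 was the only class I heavy chain gene that met this, so the absence of others says nothing about likeness.

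Tap1, which forms the peptide pump with Tap2, read 7.45, 7.29 and 7.57 in Rb/p107 DKO, 7.52, 7.36 and 7.28 in Rb KO, and 7.25, 7.24 and 7.19 in WT retinas. No array was above background, although each mutant reading was higher than each WT reading. The log2 difference was 0.21 in Rb/p107 DKO (SE 0.09, adjusted p = 0.106) and 0.16 in Rb KO against WT (SE 0.09, adjusted p = 0.232), and neither passed. Between Rb/p107 DKO and Rb KO it was 0.05 (adjusted p = 0.923).

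The rest of the peptide loading machinery was flat or lower. Of 7 measured genes, Tap1 included, 3 fell in each mutant against WT and none rose, with a median log2 difference of -0.22 in Rb/p107 DKO and -0.14 in Rb KO, beside -0.06 and -0.05 over all genes. The shares of all genes that fell were 17.1% in Rb/p107 DKO and 14.3% in Rb KO. Erap1, the aminopeptidase that trims peptides to length, read 6.6, 6.87 and 6.98 in Rb/p107 DKO, 6.44, 6.76 and 6.74 in Rb KO, and 7.41, 7.29 and 7.42 in WT retinas. These readings, all below background, fell by 0.56 in Rb/p107 DKO (adjusted p = 0.004) and by 0.73 in Rb KO (adjusted p = 0.00104) on the log2 scale. Tapbpl, a relative of tapasin, also below background, fell by 0.35 in Rb/p107 DKO (adjusted p = 0.00803) and by 0.28 in Rb KO (adjusted p = 0.0289), the second lost on leaving out replicate 2 of WT (0.061) or replicate 1 (0.0906) or 2 (0.0566) of Rb KO.

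The general chaperone genes of the endoplasmic reticulum were well above background. Canx, which encodes calnexin, fell by 0.24 in both mutants against WT (adjusted p = 0.0191 in Rb/p107 DKO and 0.0238 in Rb KO). Its Rb/p107 DKO call was lost without WT replicate 1 (0.0501) or any Rb/p107 DKO replicate (0.0539 to 0.0842), and its Rb KO call on leaving out replicate 1 (0.0616) or 3 (0.0566) of WT or replicate 1 (0.064) or 2 (0.0556) of Rb KO. Calr, the calreticulin gene, did not pass (-0.12 in Rb/p107 DKO, adjusted p = 0.203, and -0.11 in Rb KO, adjusted p = 0.281). Tap2 did not pass either (-0.11 in Rb/p107 DKO, adjusted p = 0.363, and -0.14 in Rb KO, adjusted p = 0.266), nor did the tapasin gene Tapbp (-0.22 in Rb/p107 DKO, adjusted p = 0.0743, and -0.12 in Rb KO, adjusted p = 0.376).

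The immunoproteasome subunit genes Psmb8, Psmb9 and Psmb10, which replace standard subunits and favour class I peptides, did not pass in either mutant. Psmb9, which shares its promoter region with Tap1, read 6.29 to 6.47 in Rb/p107 DKO, 6.23 to 6.33 in Rb KO and 6.07 to 6.38 in WT retinas. Its adjusted p was 0.358 in Rb/p107 DKO and 0.806 in Rb KO. Psmb8 differed by 0.10 in Rb/p107 DKO (adjusted p = 0.436) and by -0.05 in Rb KO (adjusted p = 0.753), and Psmb10 by -0.19 in Rb/p107 DKO (adjusted p = 0.185) and -0.18 in Rb KO (adjusted p = 0.219). Psme1, a subunit of the proteasome activator PA28, was the only 1 of 4 measured genes called. It rose by 0.25 in Rb/p107 DKO (adjusted p = 0.0242), where 12.2% of all genes rose. That call was lost on leaving out replicate 1 (0.0742) or 3 (0.0553) of WT or replicate 1 (0.0759) or 3 (0.102) of Rb/p107 DKO. The Psme1 difference in Rb KO was 0.20 (adjusted p = 0.0614).

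**Figure D2:**
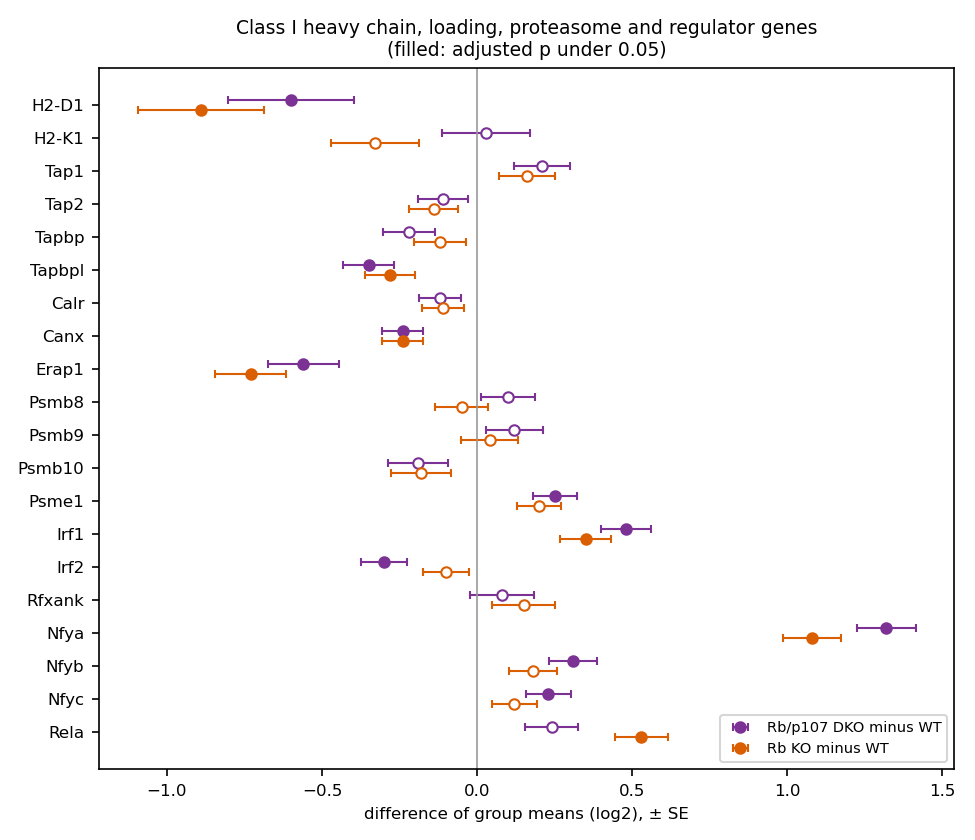
Difference of group means (log2) from WT for genes of the class I pathway, with Rb/p107 DKO minus WT above Rb KO minus WT for each gene, bars of ± 1 SE, and filled symbols for an adjusted p under 0.05 in limma. H2-D1 and Erap1 lie to the left of 0 in both mutants, Tap1 and the 3 Psmb genes lie near 0 with open symbols, and the regulator gene Nfya lies farthest to the right at 1.32 in Rb/p107 DKO and 1.08 in Rb KO.

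Regulators of class I transcription, among them factors that bind the words marked above, mostly rose or did not pass. Of 7 measured, 4 rose and 1 fell in Rb/p107 DKO, and 3 rose and 0 fell in Rb KO against WT. Over all genes 12.2% rose and 17.1% fell in Rb/p107 DKO, and 10.2% rose and 14.3% fell in Rb KO. Nfya, a subunit of the factor that binds CCAAT, read 10.17, 10.13 and 10.17 in Rb/p107 DKO, 9.86, 9.95 and 9.94 in Rb KO, and 8.62, 9.01 and 8.87 in WT retinas. It rose by 1.32 in Rb/p107 DKO (SE 0.094, adjusted p = 2.9e-06) and by 1.08 in Rb KO (adjusted p = 2.1e-05), and its partner Nfyb rose by 0.31 in Rb/p107 DKO (adjusted p = 0.0116). Rela, the p65 subunit of NF-kB, rose by 0.53 in Rb KO (adjusted p = 0.0013), and its difference in Rb/p107 DKO was 0.24 (adjusted p = 0.0607).

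Irf1, an interferon-induced activator of class I and Tap1 transcription, rose by 0.48 in Rb/p107 DKO (adjusted p = 0.00127) and by 0.35 in Rb KO (adjusted p = 0.0101), at readings below background. With the mean of its probe sets in place of the brightest, the differences were 0.21 (adjusted p = 0.0605) in Rb/p107 DKO and 0.15 (adjusted p = 0.193) in Rb KO, and neither was called. Irf2, a related factor, fell by 0.30 in Rb/p107 DKO (adjusted p = 0.0108, and 0.0548 without Rb/p107 DKO replicate 3). Nlrc5, the class I transactivator, lay on a probe set shared with a microRNA gene, read 5.95 to 6.20 over all 9 arrays and was not called in the fit to all transcript clusters.

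Of 17 measured interferon pathway genes, 5 fell in Rb/p107 DKO (17.1% of all genes fell) and 6 in Rb KO against WT (14.3%), and none rose (12.2% and 10.2% of all genes). Ifngr1, a chain of the interferon gamma receptor, read 7.89, 8.11 and 8.02 in Rb/p107 DKO, 8.06, 8.19 and 8.44 in Rb KO, and 8.86, 8.81 and 8.73 in WT retinas. It was at least 1.34-fold lower in Rb/p107 DKO (adjusted p = 2.2e-04), where no array was above background, and its readings fell by 0.57 in Rb KO (adjusted p = 0.00233). The receptor kinase gene Jak1 fell by 0.42 in Rb/p107 DKO (adjusted p = 0.00215) and by 0.36 in Rb KO (adjusted p = 0.00633). The interferon-induced genes Irf7 (-0.39 in Rb/p107 DKO, adjusted p = 0.00467, and -0.43 in Rb KO, adjusted p = 0.00338) and Isg15 (-0.34 in Rb/p107 DKO, adjusted p = 0.011, and -0.48 in Rb KO, adjusted p = 0.0021) fell at readings below background. Other settings were not summarised for Jak1 in Rb KO or Isg15 in Rb/p107 DKO.

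The non-classical class I genes were mixed. Of 19 with a probe set of their own, 3 rose and 4 fell in Rb/p107 DKO and 2 rose and 5 fell in Rb KO against WT, with medians of -0.08 in Rb/p107 DKO and -0.10 in Rb KO. Over all genes, 12.2% rose and 17.1% fell in Rb/p107 DKO and 10.2% rose and 14.3% fell in Rb KO, with medians of -0.06 and -0.05, so that most of these counts are near what all genes gave. H2-Q4, a gene of the Qa cluster beside H2-D1, was the only one of the 19 above background on any array (1 Rb/p107 DKO array). It read 8.37, 8.05 and 8.42 in Rb/p107 DKO, 7.98, 7.92 and 7.76 in Rb KO, and 7.63, 7.59 and 7.38 in WT retinas. The 3 groups did not overlap, with Rb/p107 DKO highest and WT lowest.

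H2-Q4 readings were 0.75 log2 units higher in Rb/p107 DKO than in WT (adjusted p = 6.3e-04), and this call held whichever array was left out. Of the 3 Rb/p107 DKO readings, 2 were below the threshold of their own array, and no WT array was above background, so no fold is given. In Rb KO its readings rose by 0.35 (adjusted p = 0.044), a call that was lost with the replicate number as a block (0.0525) and on leaving out replicate 1 (0.0558) or 3 (0.136) of WT, replicate 1 (0.136) or 2 (0.124) of Rb KO, or replicate 1 of Rb/p107 DKO (0.0559). Between Rb/p107 DKO and Rb KO its difference was 0.39 (adjusted p = 0.114).

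Not all Qa genes rose. H2-Q1, H2-Q2 and H2-Q10, each with a probe set of its own, were below background on every array. They differed by 0.01, -0.10 and -0.04 in Rb/p107 DKO against WT (adjusted p = 0.931, 0.505 and 0.764). In Rb KO, H2-Q2 fell by 0.32 (adjusted p = 0.0388), and other settings were not summarised for it. Further Qa genes lay on shared probe sets, which were read in the fit to all transcript clusters. The probe set of H2-Q6 and H2-Q8 read 8.18, 7.99 and 8.39 in Rb/p107 DKO, 7.60, 7.63 and 7.71 in Rb KO, and 7.43, 7.36 and 7.33 in WT retinas. That of H2-Q5 and H2-Q7 read 8.43, 8.15 and 8.53 in Rb/p107 DKO, 7.83, 7.75 and 7.80 in Rb KO, and 7.89, 7.67 and 7.83 in WT retinas. That of H2-Q7 and H2-Q9 read 8.04, 7.74 and 8.12 in Rb/p107 DKO, 7.33, 7.21 and 7.26 in Rb KO, and 7.26, 7.02 and 7.03 in WT retinas. On all 3 shared probe sets every Rb/p107 DKO array was above every Rb KO and every WT array, while most readings were below background. How many of all clusters separate in this way was not counted.

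Against WT the readings of the 3 shared probe sets rose in Rb/p107 DKO by 0.82 (adjusted p = 5.3e-04), 0.57 (adjusted p = 0.00473) and 0.87 (adjusted p = 6.2e-04) on the log2 scale, in the order given. These calls held whichever array was left out. Of all transcript clusters, 9.49% were called higher in Rb/p107 DKO against WT. No WT array was above background. Of 3 Rb/p107 DKO arrays, 1 was above it for H2-Q6 and H2-Q8 and 1 for H2-Q5 and H2-Q7, while H2-Q7 and H2-Q9 was below background throughout. No fold is therefore given for these probe sets. In Rb KO they did not pass, with differences of 0.27 (adjusted p = 0.112), -0.00 (adjusted p = 0.986) and 0.16 (adjusted p = 0.401). Between Rb/p107 DKO and Rb KO, 0.603% of all clusters were called higher. The difference between these groups was called for each probe set: 0.54 (adjusted p = 0.0412), 0.58 (adjusted p = 0.0384) and 0.70 (adjusted p = 0.0196). Those calls were lost without any Rb KO replicate or without Rb/p107 DKO replicate 1 or 3 (adjusted p 0.0738 to 0.168), and that of H2-Q6 and H2-Q8 also without WT replicate 1 (0.0535) and with the replicate number as a block (0.0839). That of H2-Q5 and H2-Q7 was lost with the control covariate as well (0.0501). These genes are near copies of one another, so the probe sets may read the same transcripts and are not separate observations.

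**Figure D3:**
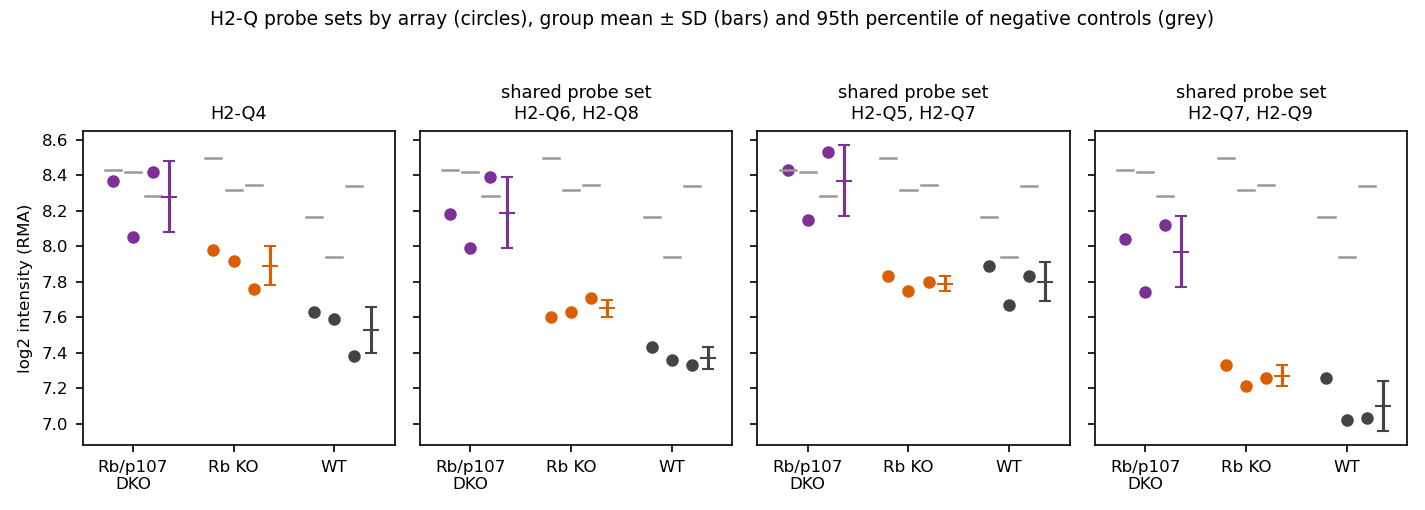
Log2 intensity (RMA) of 4 probe sets of Qa class I genes in each retina, Rb/p107 DKO, Rb KO and WT from left to right, with a circle per array, group mean ± SD bars (n = 3) and a grey line at each array's 95th percentile of negative controls. Rb/p107 DKO circles lie above those of Rb KO and WT in all 4 panels, from 7.74 to 8.53, and mostly under the grey lines.

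Among the other non-classical genes readings were all below background. H2-M5 rose by 0.38 in Rb/p107 DKO (adjusted p = 0.00944) and by 0.28 in Rb KO (adjusted p = 0.0498), the second lost on leaving out any array but WT replicate 3 (adjusted p 0.0579 to 0.123). H2-T24 rose by 0.24 in Rb/p107 DKO (adjusted p = 0.022), lost without any Rb/p107 DKO replicate (0.0586 to 0.0791). Hfe, whose protein takes part in iron sensing, fell by 0.97 in Rb/p107 DKO (adjusted p = 0.00218) and by 0.80 in Rb KO (adjusted p = 0.00806). H2-M1 fell by 0.33 in Rb/p107 DKO (adjusted p = 0.00566) and by 0.39 in Rb KO (adjusted p = 0.00302). H2-M3, which presents formylated peptides, fell by 0.28 in Rb/p107 DKO (adjusted p = 0.0367) and by 0.38 in Rb KO (adjusted p = 0.0103). Other settings were not summarised for H2-M3 in Rb/p107 DKO. H2-M10.4 fell by 0.32 in Rb/p107 DKO (adjusted p = 0.0255), lost without WT replicate 1 (0.0965) or Rb/p107 DKO replicate 1 (0.11) or 3 (0.0886).

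MHC class II, which antigen-presenting cells show to helper T cells, was below background throughout. Of 6 measured genes only H2-Ab1 was called: it rose by 0.73 in Rb/p107 DKO against WT (adjusted p = 2.6e-04) and by 0.49 against Rb KO (adjusted p = 0.0282). Over all genes, 12.2% rose in Rb/p107 DKO against WT and 1.34% against Rb KO. The second call was lost without any Rb KO replicate (0.0539 to 0.112) or without Rb/p107 DKO replicate 1 (0.0961) or 3 (0.126).

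Markers of other cells moved with the groups as well. Vessel endothelium, a known site of class I expression, had 7 of 8 markers that fell in Rb/p107 DKO (17.1% of all genes) and 6 of 8 in Rb KO (14.3%). Its summed linear intensity was 4390 to 4530 in Rb/p107 DKO, 4700 to 5120 in Rb KO and 4990 to 5740 in WT retinas. Kdr, a receptor of vessel growth factor that did not pass in either mutant, made up 58.7% to 80.6% of that sum, which without Kdr was 862 to 1160 in Rb/p107 DKO, 1160 to 1240 in Rb KO and 1770 to 2370 in WT retinas. Cldn5, a tight junction gene, was at least 1.65-fold lower in Rb/p107 DKO (adjusted p = 1.8e-04) and at least 1.64-fold lower in Rb KO (adjusted p = 7.7e-04). Microglia, the resident phagocytes of the retina, had 5 of 12 markers that rose in Rb/p107 DKO (12.2% of all genes) and 6 in Rb KO (10.2%). Of the 12, 9 were above background on no array. Tmem119 and Siglech differed by -0.14 each in Rb/p107 DKO and did not pass (adjusted p = 0.192 and 0.221). The sums of the markers were 2600 to 3450 in Rb/p107 DKO, 2120 to 3110 in Rb KO and 1710 to 1850 in WT retinas. The complement gene C1qb, for example, rose by 1.60 in Rb/p107 DKO (adjusted p = 3.2e-04) and by 1.43 in Rb KO (adjusted p = 8.3e-04).

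All 6 measured proliferation markers rose in both mutants, where 12.2% of all genes rose in Rb/p107 DKO and 10.2% in Rb KO. The sum of these markers was 12400 to 14400 in Rb/p107 DKO, 9870 to 13200 in Rb KO and 706 to 889 in WT retinas. Neither the fall of H2-D1 nor the higher readings of Ulbp1 and of the Qa probe sets that rose were separated from these shifts. The part of endothelium, microglia and proliferating cells in them was not tested.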

How the data were processed

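Retinal RNA of integrity above the labels' minimum was amplified, labelled with biotin and hybridized to Affymetrix arrays, per the labels' protocols. The deposited table held log2 intensities of 59649 probe sets, which RMA had summarised, per the submitters' processing notes. Neither software versions nor the annotation's build are named in those sources. Genes were named from the platform annotation (24646 transcript clusters with 1 symbol, 1795 with several, 26476 with none), and the brightest probe set stood for a gene, which gave 24259 genes with no filter. Groups were compared with limma 3.58.1 in R 4.3.3 on all 9 arrays (lmFit and eBayes, 6 residual and 4.69 prior degrees of freedom), adjusted by Benjamini-Hochberg over all genes and called under 0.05. Shared probe sets were read in a second such fit to all 52917 clusters, added after the sharing was seen. The scripts were tested on simulated data. Precision is limited by 3 arrays per group, and the share of all genes whose groups did not overlap was not counted. The members and lists were chosen with earlier results of these data known. Named genes are the members, every measured ligand, receptor, loading and immunoproteasome gene, the Qa genes, and up to 3 called genes per direction and list, and for likeness the highest Pearson r. Replicate numbers did not pair arrays (correlations of deviations between -0.162 and 0.145). Alternatives were another probe set rule, renewed quantile normalization, a filter on dim genes, another variance model, a replicate block, only the groups compared, a control covariate and leaving out each array.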

Additional observations from a re-analysis of the deposited data

How the results depend on the processing

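Precision rests on 3 arrays per group, and most of the class I and RAE-1 readings lie at or below background, where a difference can understate a change. The counts of called genes kept their size within 1.5 times except with the filter on dim genes, which tested 7530 genes and called 3939 in Rb KO and 4247 in Rb/p107 DKO against WT, and in Rb/p107 DKO against Rb KO without single arrays (253 to 859). Leaving out arrays gave 4043 to 6779 calls in Rb KO and 4911 to 7867 in Rb/p107 DKO against WT. With the replicate block the counts were 6666 in Rb/p107 DKO against WT, 5453 in Rb KO against WT and 501 between the mutants, and the numbers share no more than a number. The block ended the H2-D1 call in Rb/p107 DKO (-0.60, adjusted p = 0.0658), as did the variance model with trend and robust estimation (-0.60, 0.0576) and the control covariate (-0.23, 0.507). That covariate also ended the H2-D1 call in Rb KO (-0.58, 0.094) and gave 4.15 for Ulbp1 in Rb/p107 DKO. It ended as well calls of Canx, Gzma, H2-M5, Tapbpl, Tyrobp and the RAE-1 probe set in both mutants, of Cd4, H2-M3 and Hfe in Rb KO, and of H2-M1, H2-M10.4, H2-T24, Irf7 and Psme1 in Rb/p107 DKO. Without single arrays H2-D1 ran from -0.72 to -0.41 in Rb/p107 DKO and from -1.11 to -0.70 in Rb KO. The sign turned for H2-K1 in Rb/p107 DKO (-0.10 to 0.19 without single arrays), for Tap1 between the mutants (-0.01 to 0.12), for Hcst (-0.11 to 0.11 in Rb/p107 DKO and -0.04 to 0.18 in Rb KO, and -0.23 and -0.12 with the control covariate), for Psmb9 in Rb KO (-0.05 to 0.11, and -0.01 with the covariate) and for Klrk1 with renewed quantile normalization (0.05 in Rb/p107 DKO and 0.07 in Rb KO), none of them called. H60c alone among ligands gained a call, under renewed quantile normalization (0.25 in Rb/p107 DKO, adjusted p = 0.0275, and 0.30 in Rb KO, 0.0146). Tested values were taken as unchanged on the same side of the threshold in the same direction. Counts of called genes were so within 1.5 times, and the untested Ulbp1 differences within the SD of the groups. By that rule the other settings left 693 results unchanged, ended 45 calls, added 5, turned 5 signs and moved 3 counts or Ulbp1 differences. Leaving out arrays left 948 unchanged, ended 101 calls, added 1, turned 8 signs and moved 4. The causes were not tested. The filter on dim genes left no value for H2-K1, Tap1 and the RAE-1 probe set.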
